A study of Mus musculus with 583 samples.

Results

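Trh-high cells are the mouse embryonic stem cells that carried the most Trh messenger RNA for their library, and they are set here against the Trh-low cells of the same library. The groups were chosen by Trh itself: in each of the 12 libraries the cells were ranked by the share of their mouse gene counts that mapped to Trh, and the top and the bottom 1 part in 3 were taken. This gave 191 Trh-high cells, 191 Trh-low cells and 201 middle cells, which together are all cells of the series. The Trh values below describe the groups and carry no test. All cells were of the J1 line kept in 2i/LIF, a medium with inhibitors of MEK and of GSK3 and with leukaemia inhibitory factor, in which embryonic stem cells stay close to the naive state of the early epiblast. There was no genotype or treatment contrast, and all cells are of 1 cell line. The libraries were made by 6 methods with replicates A and B of each: Smart-seq on the Fluidigm C1 (Smart-seq / C1) and Smart-seq2 read along the whole transcript, and CEL-seq2, Drop-seq, MARS-seq and SCRB-seq count 3′ ends. Nothing in the labels says whether replicates A and B came from separate cultures, so the p-values measure the spread between libraries, which may be technical.

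Trh encodes the precursor of thyrotropin-releasing hormone. In the hypothalamus the precursor is cut by prohormone convertases and its ends are amidated, and the released tripeptide acts on a receptor of pituitary cells that make thyroid-stimulating hormone. Thyroid hormone represses the gene there through its nuclear receptors, and cyclic AMP signalling through CREB activates it. Embryonic stem cells are not a known source of the hormone, and the values here are of messenger RNA only.

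The Trh gene (ENSMUSG00000005892) lies on the minus strand of chromosome 6, at chr6:92242061-92244650 (GRCm38, the assembly also called mm10). The 250 bases before the RefSeq transcription start are shown for Trh, for Lin28a and Emb, which were higher in Trh-high cells, and for Eif2s2, which was lower. Among the genes called below, only Lin28a, Emb and Eif2s2 had the same direction in all 12 libraries. Sequences are from RefSeq on GRCm38.p6, each written 5′ to 3′ on the strand of its gene, and capitals mark the matches to the 7 motifs searched on both strands. Matches to a motif on the opposite strand appear as its reverse complement, and no 2 of the marked matches overlap.
Trh, chr6:92244651-92244900, minus strand: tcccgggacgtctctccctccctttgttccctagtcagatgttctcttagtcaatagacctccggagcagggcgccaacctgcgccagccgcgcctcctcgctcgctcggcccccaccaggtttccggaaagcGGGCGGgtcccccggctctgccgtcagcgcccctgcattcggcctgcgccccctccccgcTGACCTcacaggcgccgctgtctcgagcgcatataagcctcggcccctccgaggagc
Lin28a, chr4:134018817-134019066, minus strand: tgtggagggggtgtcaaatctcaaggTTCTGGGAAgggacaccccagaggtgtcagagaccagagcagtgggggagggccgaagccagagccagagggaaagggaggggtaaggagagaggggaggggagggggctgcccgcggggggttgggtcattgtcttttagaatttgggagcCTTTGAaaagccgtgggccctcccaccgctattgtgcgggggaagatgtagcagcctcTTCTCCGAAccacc
Emb, chr13:117220323-117220572, plus strand: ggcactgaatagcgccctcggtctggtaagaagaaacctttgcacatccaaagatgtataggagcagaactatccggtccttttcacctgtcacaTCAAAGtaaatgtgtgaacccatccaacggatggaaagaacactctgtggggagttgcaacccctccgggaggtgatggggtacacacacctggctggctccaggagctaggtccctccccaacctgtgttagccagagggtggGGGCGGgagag
Eif2s2, chr2:154892907-154893156, minus strand: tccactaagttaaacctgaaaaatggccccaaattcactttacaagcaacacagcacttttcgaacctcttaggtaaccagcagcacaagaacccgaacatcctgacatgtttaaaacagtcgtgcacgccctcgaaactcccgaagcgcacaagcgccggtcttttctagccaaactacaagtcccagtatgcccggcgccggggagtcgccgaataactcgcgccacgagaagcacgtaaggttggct

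The Trh window held a nuclear receptor core site (AGGTCA, printed as TGACCT) 57 bases before the start and a GC box (GGGCGG) 117 bases before it. Of 32851 RefSeq promoter windows of the same length, 14% held this core site and 32.7% the GC box. The Lin28a window held the core of a TCF/LEF site (CTTTGA, in 13.8% of windows) 72 bases before the start, and STAT sites (TTCNNNGAA, in 7.02% of windows) at 224 and 14 bases. Emb had a TCF/LEF core at 155 and a GC box at 11 bases, and its RefSeq start lies inside the longer gene model used for its counts. The Eif2s2 window matched none of the 7 motifs, which also included the cyclic AMP response element TGACGTCA (1.55% of windows), the octamer ATGCAAAT (1.6%) and the E-box CACGTG (6.02%). Among the other called genes described below, Gabarapl2 had a nuclear receptor core site and a pair of GC boxes, and the windows of Apoe, Stx3, Ckb and Ak4 had no match. The table used holds no promoter for Slc7a3 or Gm9892. A match is a run of letters and shows no binding.

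The level of Trh in a cell is given as CPM, its counts per 1000000 mouse gene counts of that cell. In Smart-seq2 B the median Trh level was 293.67 CPM in Trh-low cells, 830.33 in the middle cells and 1723.8 in Trh-high cells, and the highest cell reached 12912 CPM. Smart-seq2 A had medians of 172.38, 489.5 and 1565.3 CPM in the same order. In Smart-seq / C1 the medians were 119.33, 309.22 and 735.3 CPM in replicate A and 24.737, 188.17 and 622.55 CPM in replicate B. So the median Trh-high cell exceeded the median Trh-low cell in each full-length library, where all cells but 2 of Smart-seq2 B held a Trh count. Reads cover the whole transcript in these 4 libraries, so their levels are not set against those of the 3′ methods.

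Among the 3′ methods CEL-seq2 B stood apart, with a Trh count in every cell and medians of 102.67, 245.08 and 383.69 CPM. In the other 7 libraries of this kind the median Trh-low cell held no Trh count. Their median Trh-high cell held from 48.583 CPM in CEL-seq2 A to 356.99 CPM in MARS-seq A. The cells at 0 numbered 21 of 34 in CEL-seq2 A and 17 of 42 in Drop-seq A, and between 7 and 8 in each of the remaining 5. A cell at 0 in these libraries is a cell in which Trh was not detected at its depth, and the order among such cells is the column order of the table. In CEL-seq2 A all 11 Trh-low cells were at 0, as were 10 of the middle cells, so its low group is a part of the undetected cells fixed by that order. The Trh-high cells held from 55.81% of the Trh counts of their library in SCRB-seq A to 92.31% in CEL-seq2 A, with a median of 68.3% over libraries.

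In the full-length libraries the boundaries fell within a continuous range of levels. The lowest Trh-high cell stood at 1264.3 CPM and the highest middle cell at 1248 CPM in Smart-seq2 B. In CEL-seq2 A these cells stood at 27.607 and 27.296 CPM, but each held 1 Trh count, so depth set their order. The highest Trh count of a cell was 4 in CEL-seq2 A and 7 in SCRB-seq A, so these Trh-high groups rest on few counts per cell. At the lower boundary the highest Trh-low and the lowest middle cell held 474.38 and 474.45 CPM in Smart-seq2 B, and 66.136 and 67.566 CPM in Smart-seq / C1 B. The plot of Trh in every cell shows no gap at these boundaries.

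**Figure D1:**
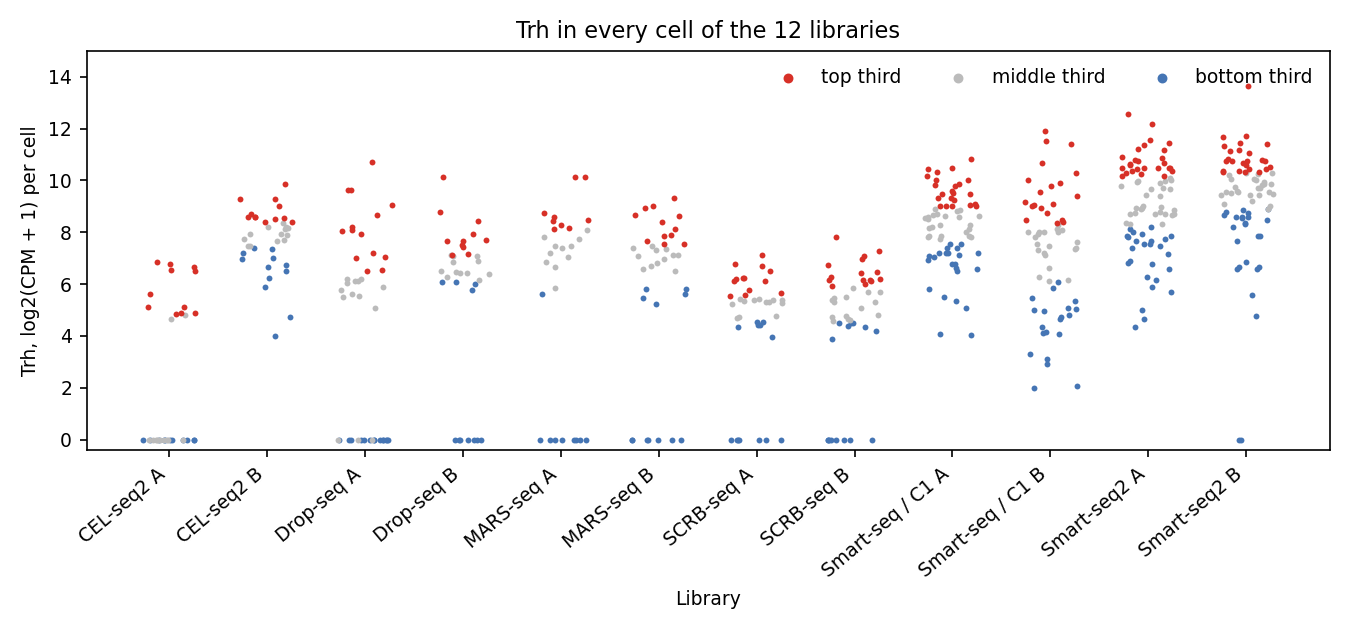
Trh in each cell of the series, by library, as log2 of CPM plus 1, with the top, middle and bottom parts of the ranking in red, grey and blue. The bottom cells lie at 0 in most 3′ libraries, and in the 4 full-length libraries and CEL-seq2 B nearly all cells lie above 0.

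Depth differed far more between methods than between the groups. The median cell held from 16188 counts in Drop-seq B to 439870 in Smart-seq2 A, and the summed counts of 9 to 26 cells per group ran from 171041 to 11224385. In Drop-seq, 29 of 42 barcodes of replicate A and 12 of 34 of replicate B lay within 1 base of another barcode, which can split a cell over several columns. For CEL-seq2 26 cell barcodes occurred in both replicates, for SCRB-seq 21 and for MARS-seq 19, and libraries of different methods shared at most 2. Genes of the pluripotent state were present in both groups: summed over 45 naive and core pluripotency genes, the libraries held 7764 to 13230 CPM in Trh-low and 7524 to 14450 CPM in Trh-high cells. Markers of other cell types were few and their ranges overlapped between the groups. Of 22 primitive endoderm genes 3 were abundant enough to test, with summed levels of 236.7 to 971.7 CPM in Trh-low and 184.5 to 1012 CPM in Trh-high cells, and Ttr had no count. Trophectoderm had 2 of 15 genes tested, mesendoderm 0 of 11 (Cer1 and Lhx1 without a count), the neural list 1 of 13 (Dcx and Olig2 without a count) and the fibroblast list 3 of 14 (Postn and S100a4 without a count). The germline list had 3 of 18 genes tested and the 2-cell-like list 1 of 18 (Sp110 and Tdpoz4 without a count). Summed levels of the germline list were 232.4 to 840.8 CPM in Trh-low and 237.4 to 663.5 CPM in Trh-high cells, and those of the 2-cell-like list 128.6 to 2122 and 52.05 to 1038 CPM. None of these genes passed the test below. Without its filter on low counts, 4 of the 2-cell-like list were called lower in Trh-high cells: Zscan4c, Zscan4d, Zscan4f and Gm5662. These counts lay mostly in the Trh-low cells of Smart-seq / C1 B, which held 1965 of the 2066 Trh-low counts of Zscan4d. The part of these markers in the results was not tested.

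Outside Trh itself, few genes separated the groups. The counts of the cells of each group were summed within each library, and the 24 sums were compared with edgeR's quasi-likelihood test with the library as a block and Benjamini-Hochberg adjustment over the 7710 genes that passed its filter on low counts. At an adjusted p below 0.05, 10 genes were called (0.130% of those tested). Of these 5 were higher in Trh-high cells (0.0649%) and 5 lower (0.0649%). At an unadjusted p below 0.05, 278 genes were higher (3.61%) and 231 lower (3.0%), and the median log2 difference of all genes tested was 0.00. The genes higher in Trh-high cells were Lin28a, Emb, Stx3, Slc7a3 and Apoe, and those lower were Eif2s2, Gabarapl2, Ckb, Ak4 and the pseudogene Gm9892.

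Lin28a (ENSMUSG00000050966, chr4:134003330-134018841, minus strand), an RNA-binding protein that blocks the maturation of let-7 microRNAs, was higher in the Trh-high cells of all 12 libraries. Its summed level ran from 30.9 CPM over a median of 88.9 to 354 CPM in Trh-low cells, and from 69.8 over 114 to 523 CPM in Trh-high cells. The ranges overlap between libraries, and within each library the high group lies above the low one, by a log2 difference of 0.03 in MARS-seq B to 1.40 in MARS-seq A. In Smart-seq2 A the level was 58.6 CPM in Trh-low, 93.1 in middle and 109 in Trh-high cells, and in Smart-seq / C1 B it was 231, 368 and 523 CPM. Both libraries thus ordered the 3 groups as Trh did, as did 6 of the 12 libraries in all. The MARS-seq A values rest on 4 and 13 counts, those of Smart-seq2 A on 816 and 1514. Over the libraries the log2 difference was 0.66 ± 0.11 (SE, n = 12 library pairs, adjusted p = 0.00235 by edgeR), a 1.58-fold higher level.

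Emb (ENSMUSG00000021728, chr13:117208536-117274415), which encodes embigin, a membrane glycoprotein that accompanies monocarboxylate transporters, was also higher in all 12 libraries. Its level ran from 26.7 over 52.7 to 230 CPM in Trh-low cells and from 31.6 over 90.1 to 431 CPM in Trh-high cells. The smallest log2 difference was 0.03, in MARS-seq A, and the largest was 1.33, in Smart-seq2 B. The fitted log2 difference was 0.71 ± 0.13 (SE, adjusted p = 0.0071 by edgeR). The middle cells had a median of 62.0 CPM and lay between the outer groups in 4 of 12 libraries, so the level of Emb did not follow the Trh order in most libraries.

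Stx3 (chr19:11775118-11819403), a syntaxin of membrane fusion at the apical surface, ran from 39.8 over 60.0 to 112 CPM in Trh-low and from 26.5 over 91.4 to 227 CPM in Trh-high cells. It was higher in 11 libraries and lower in MARS-seq B, with a log2 difference of 0.67 ± 0.14 (SE, adjusted p = 0.0206 by edgeR). Slc7a3 (chrX:101079210-101086020), a transporter of cationic amino acids, ran from 46.3 over 102 to 240 CPM in Trh-low and from 64.5 over 101 to 445 CPM in Trh-high cells. The medians over libraries were thus nearly level, while 9 of the 12 libraries, among them all 4 full-length ones, had more in Trh-high cells. Its log2 difference was 0.59 ± 0.11 (SE, adjusted p = 0.00833 by edgeR), with a mean of 0.81 over full-length and 0.27 over 3′ libraries. Apoe (chr7:19696109-19699188), a lipid carrier protein, ran from 53.5 over 531 to 942 CPM in Trh-low and from 100 over 591 to 1420 CPM in Trh-high cells. It was higher in 11 libraries, lower in Drop-seq B, and had a log2 difference of 0.42 ± 0.08 (SE, adjusted p = 0.0147 by edgeR).

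Eif2s2 (ENSMUSG00000074656, chr2:154871410-154892935, minus strand), the beta subunit of the initiation factor eIF2 that brings the initiator transfer RNA to the ribosome, was lower in the Trh-high cells of all 12 libraries. Its level ran from 503 over 1910 to 5130 CPM in Trh-low cells and from 366 over 1700 to 3690 CPM in Trh-high cells. In Drop-seq B it was 5130 CPM in Trh-low, 4370 in middle and 3030 in Trh-high cells, and in Smart-seq2 B 503, 423 and 366 CPM. The 4 full-length libraries all had this order, and in SCRB-seq A and B the groups differed by log2 differences of only -0.01 and -0.04. The fitted log2 difference was -0.38 ± 0.06 (SE, adjusted p = 0.00235 by edgeR), a 1.3-fold lower level. Gm9892 is a processed pseudogene that shares 83.9% of its 31-base words with Eif2s2, so its log2 difference of -0.37 ± 0.08 (SE, adjusted p = 0.0412 by edgeR) is uncertain as a result of its own.

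Gabarapl2 (chr8:111940703-111953612), a member of the ATG8 family of autophagosome proteins, ran from 66.4 over 254 to 396 CPM in Trh-low and from 44.7 over 149 to 380 CPM in Trh-high cells. It was lower in 11 libraries, with a log2 difference of -0.56 ± 0.10 (SE, adjusted p = 0.00833 by edgeR) and a value of -1.65 in CEL-seq2 A. Ckb (chr12:111669361-111672338), the brain-type creatine kinase, ran from 184 over 476 to 1180 CPM in Trh-low and from 82.0 over 416 to 639 CPM in Trh-high cells. It was lower in 10 libraries, with a log2 difference of -0.48 ± 0.09 (SE, adjusted p = 0.0109 by edgeR). Ak4 (chr4:101419277-101466995), an adenylate kinase of mitochondria, ran from 46.3 over 82.3 to 403 CPM in Trh-low and from 27.7 over 57.4 to 296 CPM in Trh-high cells. Its log2 difference of -0.64 ± 0.14 (SE, adjusted p = 0.0499 by edgeR, lower in 10 libraries) lies at the threshold. Gabarapl2, Ckb and Ak4 share 21.1%, 15.6% and 12.7% of their 31-base words with other genes, mainly Gm3724, Gm12892 and Ak3l2-ps, so reads could be split between them.

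**Figure D2:**
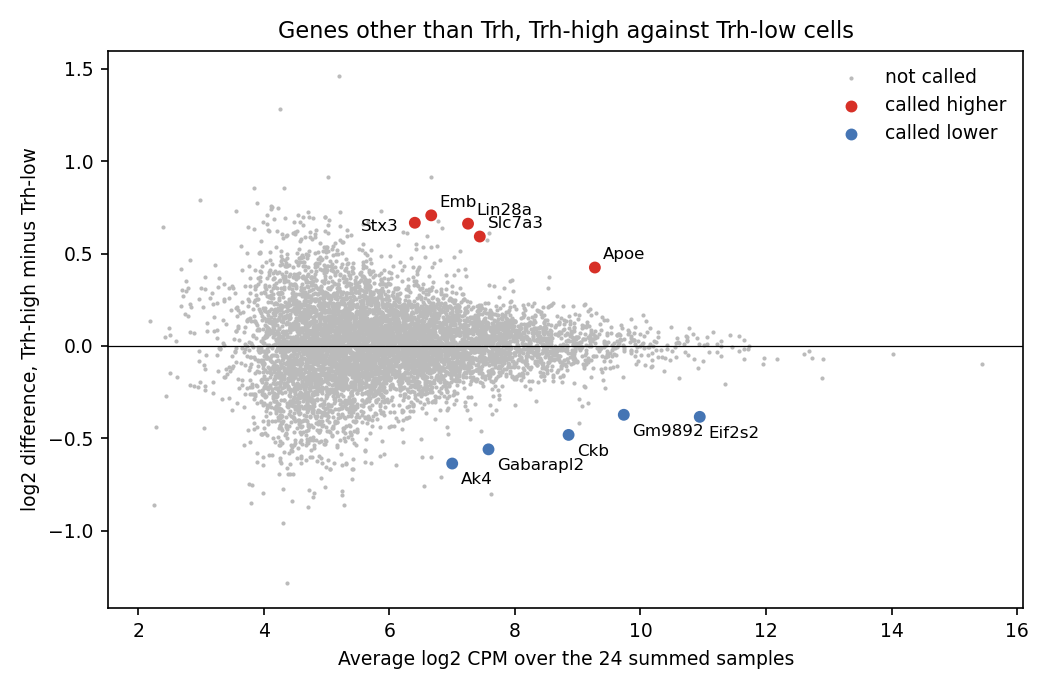
Log2 difference between Trh-high and Trh-low cells against average log2 CPM for the 7710 genes tested, one point per gene, with the 5 genes called higher in red and the 5 called lower in blue. Most genes of similar abundance lie closer to 0 than the called genes.

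Only Lin28a and Eif2s2 were called in each of the 12 fits that left out 1 library. Without Smart-seq2 A 2 genes were called and without Smart-seq2 B 3. No gene was called in the edgeR fit of the 4 full-length libraries alone (642 of 12517 tested at an unadjusted p below 0.05). The fit of all 12 libraries had 509 of 7710 at that level. Leaving out Smart-seq2 A ended the call of Emb, Slc7a3, Apoe, Stx3, Gabarapl2, Ckb, Gm9892 and Ak4, and leaving out Smart-seq2 B that of the same genes except Gabarapl2. Apoe also lost its call without Smart-seq / C1 A, and Stx3 without CEL-seq2 B or Smart-seq / C1 B. Gm9892 and Ak4 each kept theirs in 4 of the 12 fits, those without CEL-seq2 B, MARS-seq B, SCRB-seq A or SCRB-seq B. Without the block for the library edgeR called no gene (136 of 7710 unadjusted). On the mean log2(CPM + 1) per cell limma called none either (484 of 7710 unadjusted), while DESeq2 called 22 of 7710. The calls also turned over with the ranking: 5 of the 10 genes were called when cells were ranked within depth strata, and 5 between the top and bottom 1 in 4 cells. Emb (adjusted p = 0.209 and 0.19 by edgeR), Apoe (0.106 and 0.0579), Gabarapl2 (0.106 and 0.0579) and Ak4 (0.209 and 0.139) lost their call in both. Stx3 (0.21) lost its call in the first and Gm9892 (0.164) in the second. All 10 genes had the same sign in these fits.

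**Figure D3:**
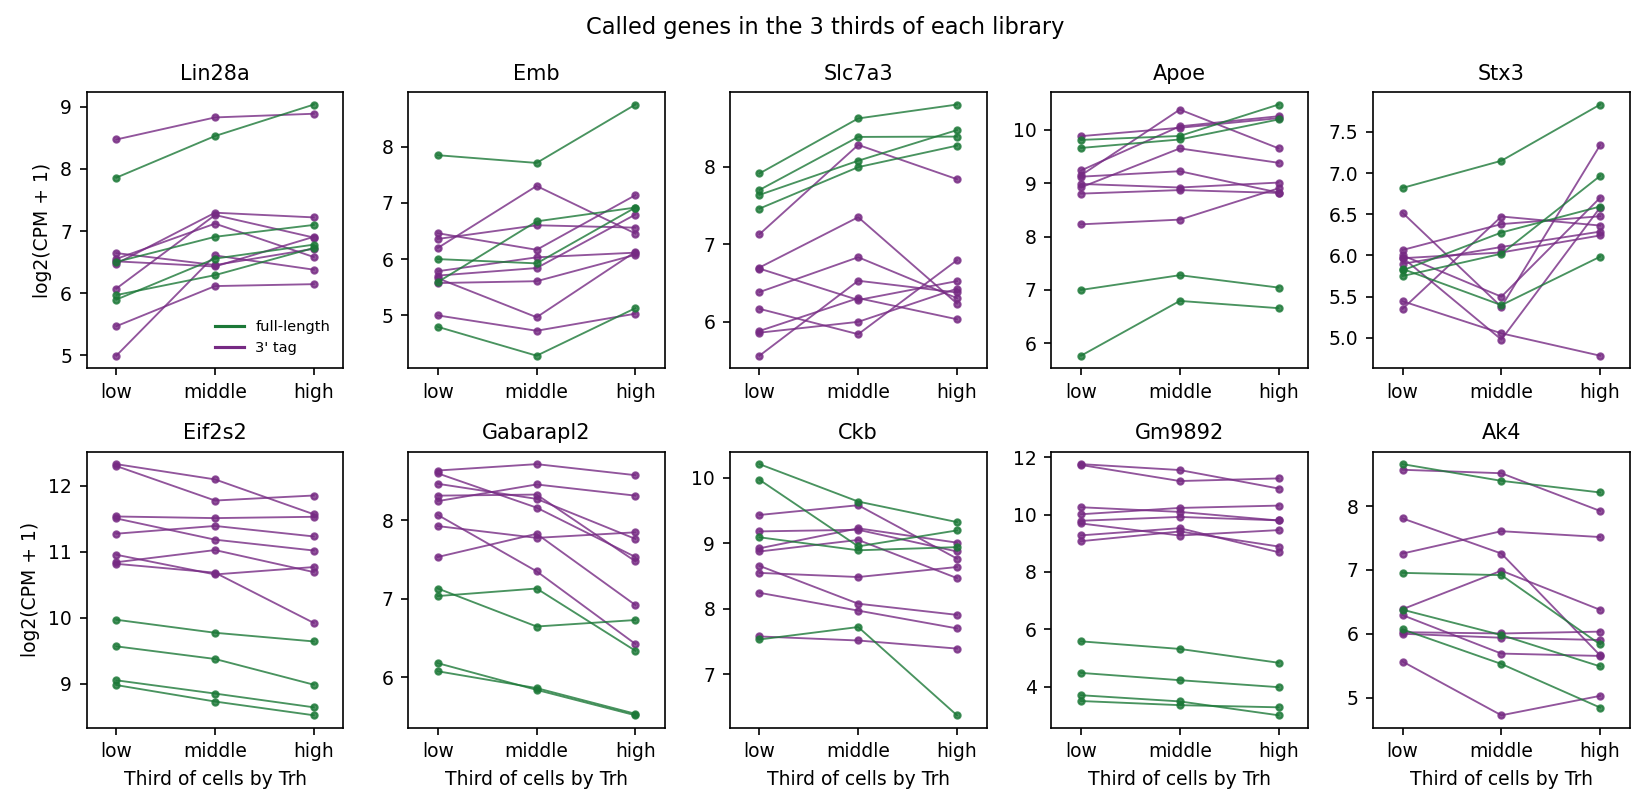
Level of each called gene as log2 of CPM plus 1 in the Trh-low, middle and Trh-high cells, one line per library, full-length libraries in green and 3′ libraries in purple. All lines of Lin28a and Emb end above their start and all lines of Eif2s2 below it, while the middle cells often lie outside the range of the outer groups.

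The difference between Trh-high and Trh-low cells was also compared between the full-length and the 3′ libraries, which asks whether both kinds of method give the same change. No gene passed the test of that interaction in edgeR, where the lowest adjusted p was 0.139, and 298 genes (3.87%) had an unadjusted p below 0.05. Lin28a had a mean log2 difference of 0.86 in full-length and 0.57 in 3′ libraries, and Eif2s2 of -0.44 and -0.37. For Ckb the means were -0.74 and -0.33, for Slc7a3 0.81 and 0.27 and for Ak4 -0.93 and -0.48. Their unadjusted interaction p by edgeR was 0.0126, 0.0223 and 0.0296, and none passed adjustment. All called genes but Gabarapl2 (-0.58 and -0.62) had the larger mean difference in full-length libraries. All 5 genes called higher were higher in all 4 full-length libraries, and all 5 called lower were lower in all 4. Of the 8 libraries of the 3′ methods, Lin28a and Emb were higher in 8 and Slc7a3 in 5. Eif2s2 was higher in 0 of them, and Ckb, Gm9892 and Ak4 in 2 each. The fit that chose these genes used the same libraries, so the signs are no separate test. A difference between the kinds of method in these genes was thus not detectable with 4 and 8 libraries.

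The genes of the naive and core pluripotency network divided between the directions. Of 41 tested, 1 was called (Lin28a, which this list holds), 20 had positive and 21 negative log2 differences, and their median was -0.02. At an unadjusted p below 0.05, 5 were higher and 5 lower. Nanog, the homeodomain factor of naive cells whose level varies between stem cells, ran from 358 over 529 to 907 CPM in Trh-low and from 297 over 393 to 780 CPM in Trh-high cells. It had less in the Trh-high cells of 10 libraries, with a log2 difference of -0.29 ± 0.07 (SE, adjusted p = 0.11 by edgeR), which did not pass. Nanog was called in 2 of 28 alternatives, with DESeq2 (adjusted p = 0.028) and without the filter on low counts (adjusted p = 0.0361 by edgeR). Pou5f1, which encodes OCT4, had a log2 difference of -0.02 ± 0.08, Sox2 of -0.10 ± 0.07, Zfp42 (REX1) of -0.05 ± 0.07, Esrrb of 0.03 ± 0.09 and Klf4 of -0.06 ± 0.14 (SE), and none passed. The fitted log2 differences of Pou5f1, Sox2, Zfp42, Esrrb and Klf4 were thus no more than 0.10 in size, while Nanog was the furthest from 0 of these 6. Single libraries varied more, for Klf4 from -1.93 in Drop-seq B to 1.07 in MARS-seq A. Nr0b1, the orphan nuclear receptor DAX1, had 0.48 (adjusted p = 0.11 by edgeR) and Manba, a lysosomal mannosidase in the list, 0.54 (adjusted p = 0.11 by edgeR), and Dppa3, a maternal factor, had -0.63 (adjusted p = 0.641 by edgeR). Nanog and Zfp42 share 10.7% and 14.1% of their words with pseudogenes.

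Genes of the primed and formative states had mostly positive differences without a call. Of 11 tested none was called, 9 had positive differences and the median log2 difference was 0.22, beside 0.00 over all genes tested. Unadjusted, 3 were higher and 0 lower, and these were Dnmt3b, Lef1 and Dusp6. Dnmt3b, a de novo DNA methyltransferase, ran from 22 over 67.1 to 160 CPM in Trh-low and from 6.28 over 121 to 214 CPM in Trh-high cells. It was higher in 10 libraries, the 4 full-length ones among them, and lower by a log2 difference of -1.72 in CEL-seq2 A. Its fitted log2 difference was 0.68 ± 0.16 (SE, adjusted p = 0.0803 by edgeR), and 15.6% of its words are shared with Dnmt3c. It was called in 4 of 28 alternatives: without the filter, with ties in reverse order, and without CEL-seq2 A or SCRB-seq B. Among 12 genes of DNA methylation, 10 had positive differences, with a median log2 difference of 0.12, Dnmt3a at 0.22 and Dnmt1 at 0.11, and none was called. Dnmt3b and Dnmt3a are in this list and in the primed and formative one.

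Lef1, a nuclear partner of beta-catenin, had the largest positive value among the list genes, at 1.46 ± 0.37 (SE, adjusted p = 0.133 by edgeR). In Smart-seq2 A it stood at 5.89 CPM in Trh-low, 36.6 in middle and 83 in Trh-high cells, and in Smart-seq / C1 A at 1.8, 6.63 and 18.6 CPM. Smart-seq / C1 B had 28.7, 49.5 and 99.0 CPM and Smart-seq2 B 32.5, 54.6 and 76.5 CPM, so all 4 full-length libraries ordered the groups as Trh did. Across the 3′ libraries its counts per group ran from 0 to 34, and CEL-seq2 B, Drop-seq A and SCRB-seq A had slightly more in Trh-low cells. Lef1 was called in 5 of the 26 alternatives that tested it: without the filter, within depth strata (adjusted p = 0.0446 by edgeR), with ties in reverse order, and without CEL-seq2 B or SCRB-seq A. The interaction of 2.09 with the kind of method had an adjusted p of 0.787 by edgeR. Among 14 genes of the Wnt pathway, which the GSK3 inhibitor of the medium activates, 8 had positive differences and none was called. Their median log2 difference was 0.05, with Axin2 at 0.28 and Cdx1 at 0.50. Lef1 is in this list and in the primed and formative one.

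Of 9 genes of the LIF and STAT3 list, which holds both pathway components and targets, none was called. Negative differences were found for 8 of them, beside 3797 of all 7710 genes, and their median log2 difference was -0.18. Tfcp2l1, a transcription factor of the naive network, had -0.20, Tbx3 had -0.22 and the kinase Jak1 -0.34, each with an adjusted p of 0.652 or more by edgeR. The receptor gene Lifr was the exception, at 0.29. Tfcp2l1, Tbx3, Lifr, Stat3, Klf4 and Il6st are also in the naive and core pluripotency list. Of 9 FGF and ERK targets 7 had positive differences with a median of 0.17 and none was called. Dusp6, a phosphatase of ERK, had 0.61 and Spred2 0.66, while Fgfr1 had -0.36 (adjusted p = 0.737, 0.633 and 0.647 by edgeR). Dusp6, Etv4 and Etv5 are also in the primed and formative list. Lists that share members are not separate results.

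Few genes that act on the hormone itself were abundant enough to test. Of 20 genes of hormone processing and TRH signalling 19 had a count in some cell, 3 passed the filter on low counts, and none was called. Prep, a prolyl peptidase, had a log2 difference of -0.35, Prcp of 0.43, and Pgpep1, a pyroglutamyl peptidase, of 0.04. Of 16 genes known to regulate Trh in the hypothalamus 8 were tested and none called; Creb1 had -0.07, Atf1 0.37, the corepressor Ncor1 -0.03 and Stat3 -0.07, and Sim1 and Dio2 had no count.

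Genes of amino acid supply gave another list with a call. Of 20 targets of ATF4, the factor of the amino acid stress response, Slc7a3 was called higher and 15 had negative differences, with a median of -0.08. Cbs, which makes cystathionine, had a log2 difference of -0.81 ± 0.21 (SE, adjusted p = 0.137 by edgeR) and less in the Trh-high cells of 10 libraries. Its level ran from 7.72 over 36.9 to 87.5 CPM in Trh-low and from 0 over 20.9 to 66.0 CPM in Trh-high cells. Atf4 itself had -0.14 and Asns -0.11, so Slc7a3 stood apart from most of its list. Of 25 genes of cholesterol synthesis 20 had positive differences with a median log2 difference of 0.10 and none was called. Ebp, a sterol isomerase of this pathway, had 0.60 ± 0.14 (SE, adjusted p = 0.0803 by edgeR) and was higher in 11 libraries, and Scd2, a fatty acid desaturase, had 0.23.

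Apoe, Sdc4 and Sgk1 form a list of variable genes that was chosen with earlier results of these data known. Sgk1, a kinase induced by glucocorticoids and serum, ran from 108 over 471 to 1350 CPM in Trh-low and from 145 over 303 to 1080 CPM in Trh-high cells, with a log2 difference of -0.42 ± 0.09 (SE, adjusted p = 0.0539 by edgeR, lower in 11 libraries). The proteoglycan gene Sdc4 had -0.22 ± 0.14 (SE, adjusted p = 0.801 by edgeR). Of the 3 only Apoe passed here, and its contrast with Sgk1 rests on this fit. Sgk1 was called in 11 of 28 alternatives, among them DESeq2 (adjusted p = 0.0461), thinned cells (adjusted p = 0.0119 by edgeR) and 5 of the 12 fits without 1 library, and Apoe in 17 of 28.

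No gene of the cell cycle lists was called in this fit. Of 47 G2/M genes 34 had negative differences with a median of -0.08, and 5 were lower at an unadjusted p below 0.05: Prc1 (-0.35), Cenpf (-0.32), Nek2 (-0.61), Top2a (-0.17) and Dlgap5 (-0.32). Pttg1, the securin of the metaphase to anaphase step, is in neither cell cycle list and was named after its value was seen. It had a log2 difference of -0.60 ± 0.14 (SE, adjusted p = 0.0803 by edgeR). Pttg1 was called in 5 of the 27 alternatives that tested it: without the filter, within depth strata (adjusted p = 0.0331 by edgeR), between the top and bottom 1 in 4 cells (adjusted p = 0.0103), with ties in reverse order, and without MARS-seq B. Of 40 G1/S genes 30 had positive differences with a median of 0.04, and Mcm6 and Mcm3 were at -0.17 and -0.16. Of 84 ribosomal protein genes 58 had positive differences with a median of 0.03, and all 12 mitochondrially encoded genes tested had negative ones with a median of -0.08. The 8 metallothionein and zinc genes tested had a median of -0.18, and the zinc exporter gene Slc30a1 had -0.87 ± 0.26 (SE, adjusted p = 0.246 by edgeR). Members of these lists share cells and totals, and the counts carry no test of the list.

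**Figure D4:**
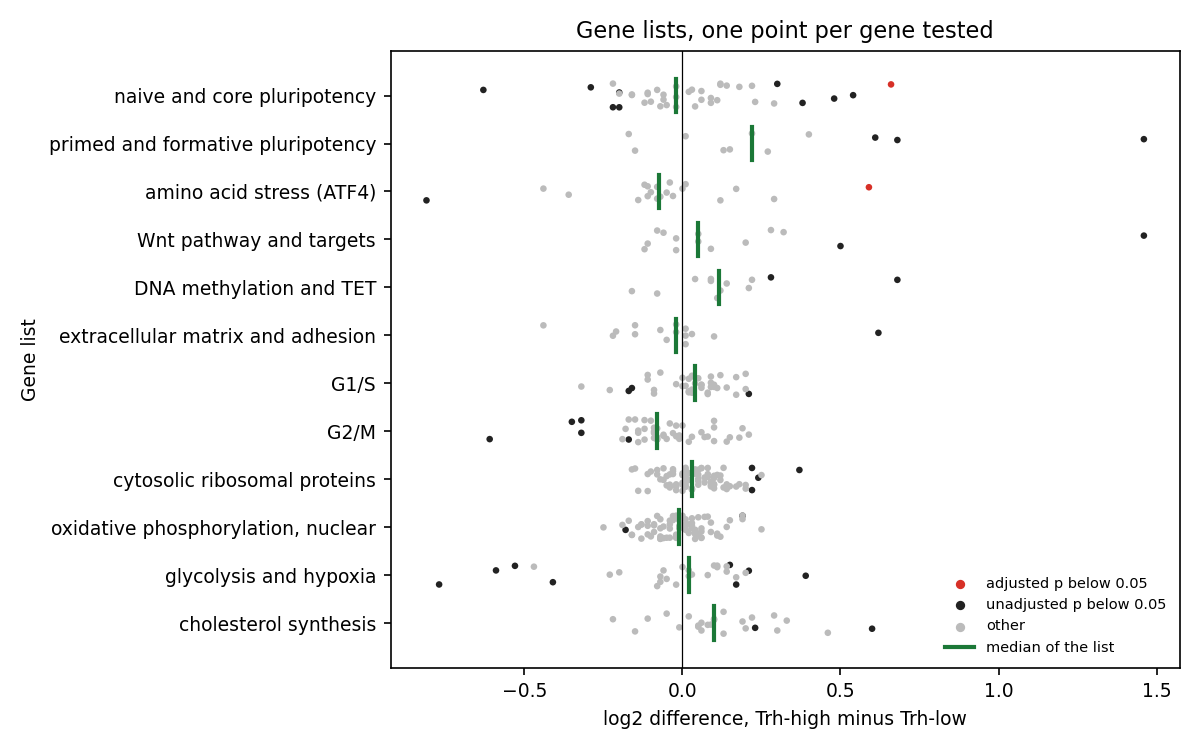
Log2 difference between Trh-high and Trh-low cells for each tested gene of 12 gene lists, one point per gene, with green bars at the list medians. Red points passed at an adjusted p below 0.05 and black points had an unadjusted p below 0.05. The primed and formative list has the highest median, 0.22, and no red point.

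No measure of cell and RNA quality passed its test between the groups. The median count per cell differed by a log2 ratio of 0.0275 ± 0.179 (SD, n = 12 libraries, exact two-sided sign-flip permutation p = 0.611, adjusted p = 0.87 over 5 measures), with Trh-high cells deeper in 7 libraries. After thinning each cell to 10000 counts, Trh-high cells had 11.6 ± 98.0 more genes (SD, n = 12, exact p = 0.696, adjusted p = 0.87). The mitochondrial share differed by -0.00984 ± 1.38 percentage points (SD, n = 12, exact p = 0.985) and was lower in Trh-high cells in 9 libraries. This mean rests on MARS-seq A, which had 3.83 points more in Trh-high cells; without it the difference was -0.359 points (exact permutation p = 0.083, adjusted p = 0.208). The ribosomal protein share was 0.279 ± 0.364 percentage points higher (SD, n = 12, exact p = 0.0249, adjusted p = 0.125) and higher in 9 libraries, which did not pass over 5 measures. Its difference reached 0.856 points in Drop-seq B and lay between -0.0248 and 0.0628 points in the full-length libraries. The spike-in share differed by -0.407 ± 1.26 percentage points (SD, n = 10 libraries without Drop-seq, exact p = 0.34, adjusted p = 0.85). The smallest p these tests allow is 0.000488 for 12 and 0.00195 for 10 libraries.

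**Figure D5:**
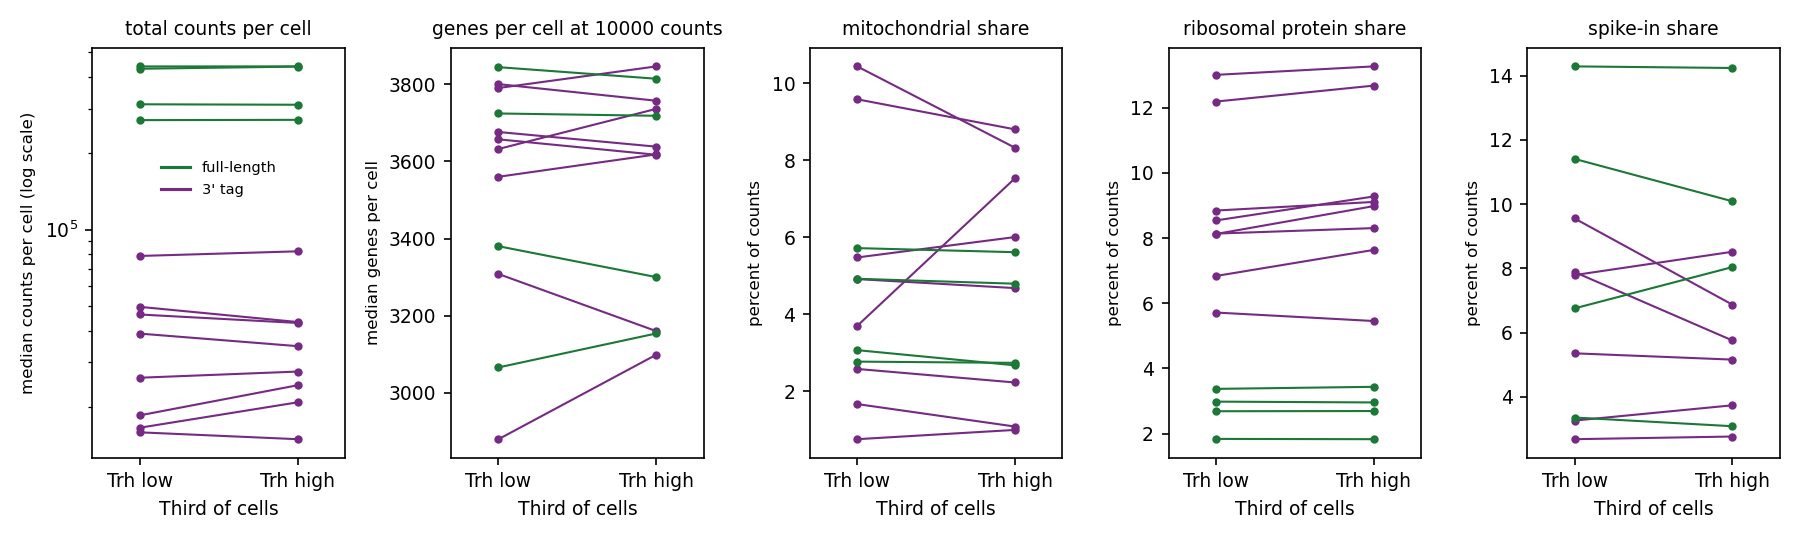
Library medians over cells of 5 measures in Trh-low and Trh-high cells, one line per library, with counts per cell on a log axis and full-length libraries in green. Lines run in both directions in each panel, and 9 of the 12 lines of the ribosomal protein share rise.

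As a description across single cells, each gene was also correlated with Trh within each library after thinning to 10000 counts, and the Spearman coefficients were averaged over the 12 libraries. For the 2685 genes abundant enough the mean coefficient ran from -0.171 to 0.186, so each likeness is weak, and genes within a library share its cells and depth. The highest values were those of Adh5 (0.186), which oxidises formaldehyde bound to glutathione, Ubr7 (0.162), Apoe (0.161), Lin28a (0.158) and Polr1a (0.155), followed by Scd2, Timeless, Eno1, BC003965 and Morc1. Adh5 and Ubr7 had log2 differences of 0.15 and 0.34 between the summed groups and did not pass. The lowest values were those of Eif2s2 (-0.171), Calcoco2 (-0.170), Gabarapl2 (-0.163), Snx6 (-0.151) and mt-Nd1 (-0.146). Calcoco2, a receptor of selective autophagy, had a log2 difference of -0.80 (adjusted p = 0.0907 by edgeR). Of the other called genes compared here, Ckb had a mean coefficient of -0.121, Slc7a3 of 0.085 and Emb of 0.006. The coefficient of Emb was positive in 4 and negative in 8 libraries, so its summed difference had no counterpart here.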

How the data were processed

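The authors deposited whole-number counts per gene and cell, in 1 table of 38924 mouse genes and 92 spike-ins, with a column per cell. Per the submitters' processing notes, bcl2fastq, STAR 2.4.0 and mm10 were used; what counted the reads and the annotation are not given in the sources used here. For the 3′ methods the counts are taken as molecules and for the full-length methods as reads. Symbols and coordinates came from GENCODE M21 (37607 identifiers matched).

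Cells of each library were ranked by Trh share of mouse counts, ties by column order. The top and bottom groups were summed, and Trh and spike-ins were removed before library sizes. edgeR 4.0.16 (R 4.3.3) used TMM scaling, filterByExpr (7710 of 25593 genes with a count), robust quasi-likelihood and the library as a block. The pairing comes from the design, because both groups of a library share its preparation. The common biological coefficient of variation was 0.209, with 11 residual degrees of freedom. CPM are of summed counts, and log2 differences of single libraries used a prior count of 2. Alternatives were DESeq2 1.42.0, limma 3.58.1, other filters, scalings, cuts of the ranking, thinning and leaving out libraries. All cells were kept and doublets were not called, although 10 cells exceeded 2 times their library's median count. Words of 31 bases were compared between transcripts.

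Genes named were the called genes, the 2 of smallest p of each list with a call, and fixed pluripotency and variable genes. Other genes were named after their values were seen. The members and lists were chosen with earlier results of these data known.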

Additional observations from a re-analysis of the deposited data

Results flagged for a closer look

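Among 48 groups of 4 or 8 libraries, 4 had a library far from the others for their range, where chance alone flags about 1 in 20. Among the 8 libraries of the 3′ methods, the log2 difference of Stx3 between Trh-high and Trh-low cells was -0.67 in MARS-seq B, below the others. That of Ak4 was -2.16 in Drop-seq B, below the others. That of Pou5f1 was 0.69 in CEL-seq2 A, above the others. The mitochondrial share of MARS-seq A was 3.83 percentage points higher in Trh-high cells, also above the others.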

How the results depend on the processing

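All 10 called genes kept their direction under each alternative that tested them. The number called was 62 of 25593 genes tested without the filter on low counts (22 higher, 40 lower). With DESeq2 it was 22 of 7710 (12 and 10), and with ties taken in reverse order 15 of 7720 (8 higher). With each library split into upper and lower cells at the middle of the ranking it was 7 of 9017 (3 lower). Without both Drop-seq libraries it was 7 of 8226 (3 lower). It was 4 of 8295 without CEL-seq2 A and Drop-seq A, in which over 1 in 3 cells had no Trh count (3 higher, 1 lower, chosen after seeing the data). It was 1 of 5346 for the 3′ libraries alone (Rhox5, 0 higher and 1 lower, 211 at an unadjusted p below 0.05). It was 0 of 12517 for the full-length libraries alone (642 unadjusted) and 0 of 7710 with limma on mean log2(CPM + 1) (484 unadjusted). In the fit with no replicate block, where method replaced the library pairing, it was 0 of 7710 in both directions (136 unadjusted). Leaving out 1 library gave 2 to 16 genes, 1 to 8 of them higher and 1 to 8 lower, with 2 without Smart-seq2 A and 3 without Smart-seq2 B. The other scalings, thinning, depth strata, top against bottom 1 in 4 cells and joined barcodes gave 9 to 12 genes. The number tested ran from 2446 with thinning to 7730 with joined barcodes. Of the 10 called genes, 5 were called again with depth strata and 5 with 1 in 4 cells. Thinning left 8 of the 10 to test, and 5 were called again. The interaction with the kind of method gave 9 genes without the filter, 1 with ties reversed and 0 to 3 with 1 library left out. The ribosomal protein share passed over 5 measures between the top and bottom 1 in 4 cells (0.426 percentage points, adjusted p = 0.0195 by exact permutation); with 1 library left out it ran from 0.226 to 0.328 points and passed without CEL-seq2 B. Depth limits the 3′ libraries, in which a gene of 4 to 13 counts per group can carry a large difference.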

Other observations

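Some gene groups outside those described above held single genes at an unadjusted p below 0.05, none of them called in the main fit. Of 14 imprinted genes tested none was called, 8 had positive log2 differences and the median was 0.06. Those with an unadjusted p below 0.05 were Impact (0.38), the noncoding RNAs Rian (0.53) and Meg3 (0.38), and Mest (0.43), and the lowest adjusted p among them was 0.11 by edgeR. Of 29 genes of glycolysis and hypoxia, 4 were higher and 4 lower unadjusted. These are larger shares than the 278 higher and 231 lower of all 7710 genes tested, and the shares were not tested. The higher ones in this list were Mif (0.15), Pdk1 (0.39), Eno1 (0.17) and Eno1b (0.21). Its lower ones were Aldoc (-0.59), Ndrg1 (-0.77), P4ha1 (-0.41) and Egln1 (-0.53). Eno1 and Eno1b are near-identical copies and are not separate results.

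The glutathione peroxidase genes Gpx1 and Gpx3 had log2 differences of -0.33 (adjusted p = 0.114 by edgeR) and -1.28 (adjusted p = 0.133 by edgeR). The median Gpx3 level over libraries was 17.9 CPM in Trh-low and 5.73 CPM in Trh-high cells. Its counts per group were only 0 or 1 in Drop-seq A, Drop-seq B and MARS-seq A. Gpx3 was lower in the Trh-high cells of 9 libraries and higher in those of CEL-seq2 A and SCRB-seq A. The epithelial adhesion gene Epcam had 0.62 (adjusted p = 0.149 by edgeR) and was higher in 9 of 12 libraries. Id3, a target of BMP signalling, had 0.55 and Bmp4 0.60 (adjusted p = 0.267 and 0.395 by edgeR), and neither passed.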
